A study of Mus musculus with 21 samples.

Results

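The genes of the cytosolic ribosomal proteins were followed over 21 arrays of cells sorted from mouse spleen. A gene was a member if a probe set carried its symbol alone and that symbol was Rpl or Rps with a number, Rplp0, Rplp1, Rplp2 or Rpsa, without the Rps6k kinases and without symbols marked as pseudogenes. The rule found 50 genes on 106 probe sets, among the 18193 genes that a single symbol named in all. Of these, 48 passed a filter on low signals that 13284 genes passed. Rpl3l, a paralog of Rpl3, did not pass it (6.7 to 66.9 over the arrays), nor did Rps16 (3.9 to 45), a small subunit gene whose single-symbol probe set gave almost no signal. The 48 encode 20 proteins of the large subunit, 20 of the small subunit with Rpsa among them, both acidic stalk proteins Rplp0 and Rplp2, and 5 paralogs of a subunit (Rpl7l1, Rpl22l1, Rpl39l, Rps4l and Rps27l). The remaining gene, Rps19bp1, meets the rule by its name but encodes a binding partner of Rps19, not a subunit. A further 31 ribosomal protein genes, such as Rplp1, Rpl3 and Rps12, were reached only by probe sets with several symbols and were not analysed here, so the members are not the whole ribosome.

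Ribosomes translate mRNA in the cytosol, and each subunit is built of ribosomal RNA and a set of proteins that are, as a rule, needed in equal number. Most of their mRNAs begin with a C and a run of pyrimidines, the 5' terminal oligopyrimidine (TOP) motif, through which the kinase mTOR and the binding protein Larp1 set their translation together. Some subunits have a paralog that can take the same place in the ribosome, and Rpl22, whose loss arrests alpha-beta T cell development, is a known case with its paralog Rpl22l1. In dendritic cells (DCs), the cells that prime T cells with peptides of captured antigen, newly made proteins are also a source of peptides for MHC class I.

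All cells came from C57BL/6 mice. Wild-type mice gave DCs sorted with the 33D1 antibody, DCs sorted with the DEC205 antibody, CD4 and CD8 T cells and B cells, and mice that had received Flt3L melanoma, killed on days 10 to 12, gave both DC subsets again. Flt3L is the ligand of Flt3 and expands DCs, and the tumour and the ligand cannot be told apart here, nor can the time since injection. Each of the 7 groups had 3 arrays, and each array held RNA of a pool of mice: 40 to 80 for wild-type DCs, 20 for DCs of Flt3L mice and 5 to 8 for lymphocytes. Nothing in the labels ties the pools to separate sorts, so p-values measure only the spread between these arrays, which may be technical. In bulk samples, fewer cells of a type and less RNA per cell cannot be told apart.

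The deposited values are probe set signals in linear units, and the trimmed mean of every array came to 500. Array medians lay between 121.9 and 204.4 and array maxima between 30350.5 and 66073.6. A description field calls the lymphocytes DCs, but their markers followed the titles. The 6 measured B cell markers summed to between 112514 and 125010 in B cells and to at most 9854 elsewhere, and 5 T cell markers to at least 52900.2 in T cells and at most 1074.8 elsewhere. The 5 measured DEC205 DC markers summed to at least 54332.4 in DEC205 DCs. On the 33D1 arrays of Flt3L mice they summed to 979.2, 954.2 and 4081.6, so replicate 3 stood apart. The 4 measured 33D1 markers summed to 12789.9, 12857.2 and 14877.1 on the wild-type DEC205 arrays, the last again from replicate 3. Earlier results of these data had named these 2 arrays as holding transcripts of the other subset, and the excess in these sums is clear for the first and small for the second. Most of the second sum is Itgax, which is high in both subsets (12350.6 to 13659.3 on the wild-type DEC205 arrays). Sirpa (230.8 to 665.9), Cd4 (57.7 to 400) and Irf4 (28.9 to 151.9) were also highest there on replicate 3. Relative to their level, the excess was larger in these genes. The main results of the members between the subsets and between mouse groups are given with and without these 2 arrays. Those of other genes are given only with them. The measured macrophage markers summed to 16064 to 21408 in 33D1 DCs, 5352 to 9837 in DEC205 DCs and 1128 to 2000 in lymphocytes. Csf1r, Cd68 and Adgre1 made up most of the sum in 33D1 DCs. The other measured markers, C1qb, Vcam1 and Hmox1, averaged 206, 222 and 58.6 in 33D1 DCs of wild-type mice. In DEC205 DCs of these mice they were higher, at 438, 652 and 848. The part of the macrophage markers in the results on DCs was not tested.

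Differences are given on the scale log2(signal + 48.6), which understates the change of low genes, with their standard error (SE). Genes with an adjusted p under 0.05 are named as called (limma, Benjamini-Hochberg adjustment over 13284 genes). A difference beside which no test is named was tested this way.

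The start sites of 44 of the 50 members were listed in RefSeq's promoter table (GRCm38.p6), and the sequences around some of them show what the family shares and where the members described below differ. Each line gives 15 bases before and 15 bases from the start, read 5' to 3' on the gene's strand. Capitals mark the longest run of 6 or more pyrimidines that begins with C within 25 bases of the start, and the first of them where runs are equally long.
Rps18 (chr17:33955651-33955680, minus strand): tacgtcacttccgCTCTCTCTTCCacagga
Rps6 (chr4:86857353-86857382, minus strand): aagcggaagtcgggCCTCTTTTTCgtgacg
Rpl38 (chr11:114668565-114668594, plus strand): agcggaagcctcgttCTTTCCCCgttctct
Rpl12 (chr2:32961697-32961726, plus strand): ggcggagcaggatccgtCTTTTCggctttc
Rps27 (chr3:90213634-90213663, minus strand): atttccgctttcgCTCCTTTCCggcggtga
Rpl22l1 (chr3:28805493-28805522, plus strand): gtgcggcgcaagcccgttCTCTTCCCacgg
Rps27l (chr9:66946071-66946100, plus strand): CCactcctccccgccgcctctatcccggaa
Rpl7l1 (chr17:46782642-46782671, minus strand): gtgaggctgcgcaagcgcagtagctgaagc
Rpl22 (chr4:152324421-152324450, plus strand): cgctgcttctggaatgttccagctcccact
In Rps18, Rps6, Rpl38 and Rps27 the run covers the start, beginning at most 2 bases before it. In the first window of Rps27l the capitals are only the end of a run of 9 that begins 22 bases before the start. Another run of 9, ctcctcccc, follows it in lower case and also ends before the start. The windows of Rpl7l1 and Rpl22 hold no such run. Over the 44 members, 28 (63.6%) had such a run within 25 bases of a listed start, against 38.5% of 27025 genes in the table. A counted run need not cover the start: that of Rpl39, 8 long, began 20 bases before it, and that of Rpl11 at base 15 after it. Such a run was present in 13 of 18 large subunit genes, 11 of 18 small subunit genes, 1 of the 2 stalk genes, 3 of 5 listed paralogs (Rpl22l1, Rpl39l and Rps27l) and not in Rps19bp1.

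In the 300 bases from 250 before to 50 after a start, CGGAAG on either strand, the core that ETS factors such as GABP bind, stood in 31 of 44 members (70.5%) and in 18.8% of all genes listed. The GC box GGGCGG was found in 59.1% of members and 38.2% of genes, and AAGATGGCG, the core of the YY1 site, in 6.82% and 1.64%. The E box CACGTG, which Myc binds, was found in 9.09% of members and 8.09% of genes, and the TATA sequence TATAAA in 13.6% and 15.7%. These are matches of letters in a window, not sites. The 50 genes lie on 17 chromosomes, at most 7 on any of them and 2 on the X chromosome, and RefSeq lists Rps4l as a transcribed pseudogene.

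The signals of the members fell into a bright and a dim class. A mean over the arrays above 20000 was found for 34 members (24033 to 40872), where the 99th percentile of the whole table was 11102.6. The other 14 had means between 157 and 12365. Levels of different probe sets depend on their probes and are not compared gene by gene. Of the 34 bright probe sets, 13 had the suffix x and 2 the suffix s in their names. Matches of their probes to other transcripts were not examined. Rps18, Rps29 and Rps3a1, all of the small subunit, had the brightest probe sets, and Rpl39l, Rps4l and Rps19bp1 the dimmest. Rps18 read 29000.4, 33817.3 and 37227.1 in 33D1 DCs of wild-type mice and 32283.9, 42209.5 and 38770.5 in DEC205 DCs. Its signals were 43542.1, 41359.1 and 47466.4 in B cells, 59996.7, 45468.6 and 47418.8 in CD4 T cells, and 54535.5, 56334.8 and 50719.3 in CD8 T cells. The highest DC array thus lay just above the lowest B cell array. Within the groups, the bright members moved together from array to array: the correlation of each with the median of the others, after taking off group means, was 0.73 to 0.98 (median 0.93). For the dim members it was -0.50 to 0.51 (median -0.09). These correlations share arrays and their scaling, and describe these 21 arrays only.

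**Figure D1:**
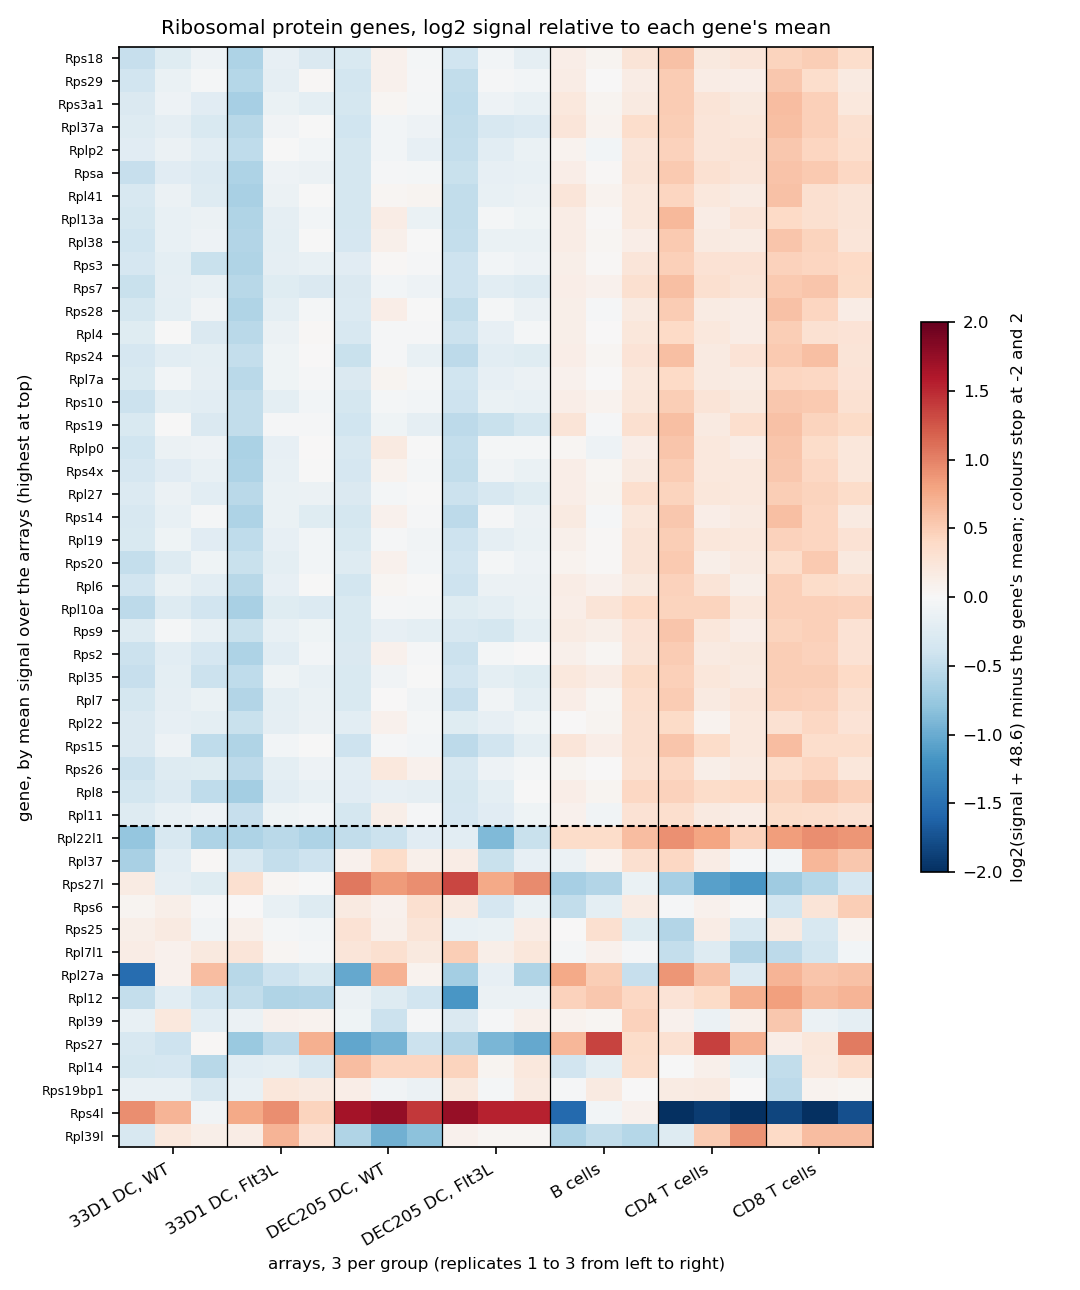
Signal of the 48 members (rows, ordered by mean signal, dashed line at a mean of 20000) on the 21 arrays (columns, replicates 1 to 3 from left to right in each group), as log2(signal + 48.6) minus the gene's mean. Above the line the 34 bright members share 1 pattern, low in DCs and high in lymphocytes, and below it the 14 dim members differ from each other.

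Wild-type DCs of both subsets (6 arrays) were then compared with the 9 lymphocyte arrays. Of the 48 members, 38 were called lower in DCs and 3 higher, where 30.3% of all genes tested were called lower and 22.4% higher. The arrays of 21 of the lower and 1 of the higher members did not overlap between the groups, beside 8.24% and 7.78% of all genes. The median difference was -0.45 over the members and -0.12 over all genes. Lower were 16 of 20 large subunit genes and 18 of 20 small subunit genes (medians -0.44 and -0.48) and both stalk genes. All 34 bright members were lower, within a narrow band of -0.65 to -0.35 (SD between genes 0.08), while 4 of the 14 dim members were lower and 3 higher. Of the other 33 genes with a mean signal above 20000, 17 were lower and 6 higher (median -0.23).

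Rpl8 and Rpl10a, which encode large subunit proteins, had the lowest differences among the bright members. Rpl8 read between 16723 and 21210.8 (median 19976.2) on the 6 DC arrays and between 24800.5 and 34876.8 on the 9 lymphocyte arrays, so the groups did not overlap (-0.65, SE 0.09, adjusted p = 1.09e-06). Rpl10a averaged 24914 ± 3344 (SD, n = 6) in DCs and 38228 ± 3399 (n = 9) in lymphocytes, again without overlap (-0.62, SE 0.08). Rpsa, the laminin receptor homologue that sits on the small subunit, averaged 30447 ± 3652 and 45057 ± 5841 (-0.56, SE 0.09, adjusted p = 2.56e-05, no overlap). Of the stalk proteins, which recruit elongation factors, Rplp2 differed by -0.47 (SE 0.09, adjusted p = 0.000124, no overlap) and Rplp0 by -0.36 (SE 0.11, adjusted p = 0.00903), with arrays that overlapped. Rpl12, whose protein forms the base of the stalk, was dim but also lower: 1002.7, 1217.7 and 1062 in 33D1 DCs, 1298.5, 1170.8 and 1070.9 in DEC205 DCs, and 1717.8 to 2521 (9 arrays) in lymphocytes (-0.85, SE 0.12, adjusted p = 4.59e-06). Among the members without a call were Rps6, the target of the S6 kinases (0.13), Rps25 (0.22), Rpl14 (0.06), Rpl37 (-0.26), Rpl39 (-0.21), Rps19bp1 (-0.12) and Rpl27a (-0.60, adjusted p = 0.0759). Rps6, Rps25, Rpl14 and Rpl12 were read on dim probe sets that did not follow the other members within groups. Their correlations with the members' median were -0.27, -0.43, -0.16 and 0.08. Whether these probe sets report the main mRNAs was not tested.

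The hybridisation controls, bacterial and phage transcripts that are added to the sample before hybridisation, were also lower on DC arrays. The 4 probe sets of cre differed by -0.41 between wild-type DC and lymphocyte arrays, and all 18 control probe sets by -0.32 on average, beside -0.48 for the members' array median. The median member signal per array was 20555 to 30530 over 12 DC arrays and 31312 to 42376 over 9 lymphocyte arrays, which did not overlap, while the mean cre signal was 19734 to 32634 and 28434 to 49820, which did. Within the DC arrays the 4 numbered 1 were the lowest in both measures (members 20555 to 23924, cre 19734 to 23846). The correlation of the members' array median with the cre mean was 0.76 within the 12 DC arrays and 0.69 within the 9 lymphocyte arrays, which describes arrays that share a scaling step. The members took 2.61 to 3.17% of the array signal in wild-type DCs and 3.27 to 4.28% in lymphocytes. How much control was added to each array is not stated in the labels, and the part of the controls' difference in the members' was not tested.

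**Figure D2:**
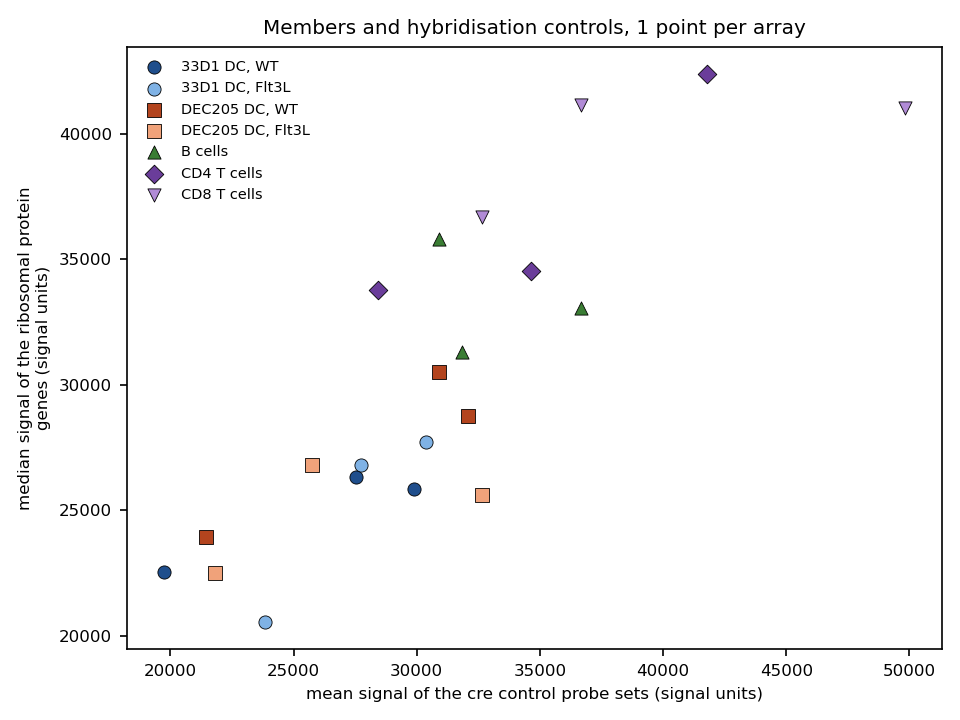
Median signal of the members (y axis, signal units) against the mean signal of the cre controls (x axis, signal units), 1 point per array, coloured by group. Lymphocyte arrays lie at the upper right (members 31312 to 42376) and DC arrays at the lower left (members 20555 to 30530).

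The arrays were also scaled in 5 other ways. Under median centring 36 members were lower and 3 higher (median -0.33), beside 19.7% and 23.8% of all genes. With quantile normalization 14 members were lower and 3 higher (median -0.05), beside 28.4% and 23.7% and an all-gene median of -0.07. Centred on cre, 2 members were lower and 5 higher (median -0.03), beside 8.24% and 34.3% of all genes, whose median moved to 0.29. Centred on all hybridisation controls, 3 members were lower and 3 higher (median -0.13), beside 9.19% and 27.4% and an all-gene median of 0.20. Centring on the members' own median sets the family near 0 by construction, and then 4 members were lower and 7 higher, beside 8.97% and 47.1%. The size of the family's difference and the number of calls thus depended on the scaling. Its median stayed below 0 in the 5 scalings not centred on it, but with quantile normalization it lay above the all-gene median. Quantile normalization gives every array the same set of values. The bright members hold many of the top ranks, so their differences are drawn toward 0 in part by construction. The quantile result is therefore no independent measure of the family's difference. Under cre centring none of the bright members was called.

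**Figure D3:**
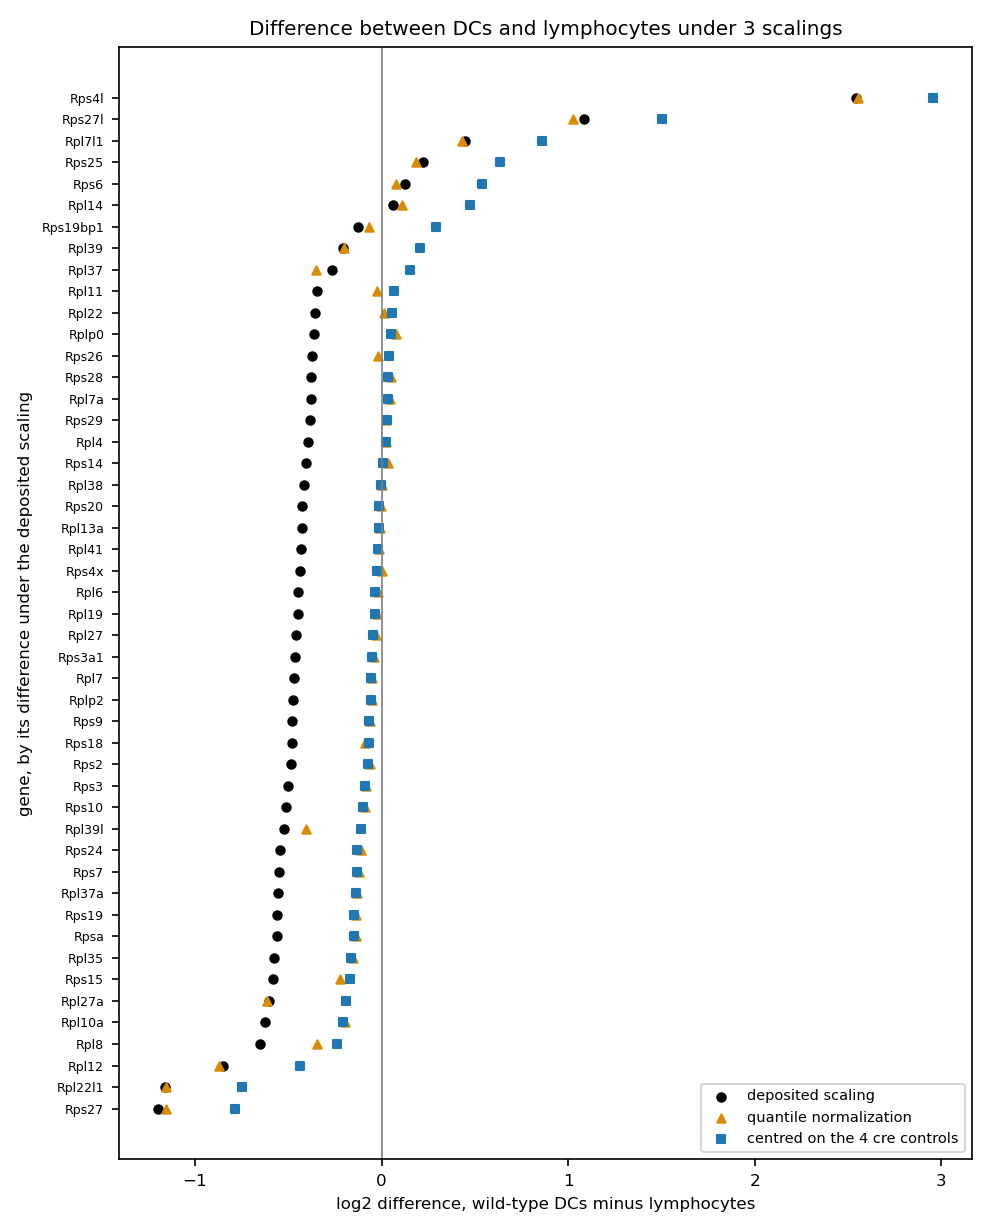
Difference of wild-type DCs from lymphocytes in log2 units (x axis) for the 48 members (rows) under the deposited scaling, quantile normalization and centring on cre. Most members lie near -0.45 as deposited and near 0 under the other scalings, whereas Rps4l, Rps27l and Rpl7l1 stay above 0 and Rps27 and Rpl22l1 stay below it. Rpl12 also stays below 0 (-0.87 with quantile normalization), without a call under cre centring.

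A group of 5 members stood apart in all 6 scalings: Rps4l, Rps27l and Rpl7l1 were called higher in wild-type DCs, and Rps27 and Rpl22l1 lower. Rps27l, a paralog of Rps27 that p53 induces, read 3463.7, 2724.6 and 2603.9 in 33D1 DCs, 6454.6, 5603.6 and 5904.5 in DEC205 DCs, 1925.5, 2043.5 and 2801.8 in B cells, 1929.2, 1422.8 and 1346.4 in CD4 T cells and 1861.7, 2074.5 and 2428.2 in CD8 T cells. The lowest 33D1 array lay below the highest B cell array, and every DEC205 array lay above all lymphocyte arrays. The difference was 1.09 (SE 0.11, adjusted p = 2e-08), or 2.13-fold, and 1.02 to 1.56 across the scalings. The 2 other probe sets of Rps27l gave 1.24 and 1.17.

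Rps27 itself, whose protein carries a zinc finger on the small subunit, went the other way on a dim probe set, the only one that carried its symbol alone. Within groups this probe set did not follow the other members (correlation with their median -0.06). Whether it reports the main Rps27 mRNA was not tested. It read 599.4, 553.6 and 773.3 in 33D1 DCs and 343.9, 376.1 and 550.4 in DEC205 DCs, and between 834.3 and 2038.6 on the 9 lymphocyte arrays, with no overlap (-1.20, SE 0.22, adjusted p = 6.45e-05). The log2 ratio of the Rps27l to the Rps27 probe set was 1.69 to 4.05 (median 2.88) in wild-type DCs and -0.50 to 1.45 (median 0.63) in lymphocytes, and only its difference between groups can be read.

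Rpl22l1 read 6573.7, 9004.5 and 7322.9 in 33D1 DCs and 7952.4, 8344.6 and 9559.6 in DEC205 DCs. Its signals were 14528.9, 14567 and 17295.7 in B cells, 21175.5, 19388 and 15395.4 in CD4 T cells, and 20125.8, 21432.7 and 20746.5 in CD8 T cells, all above the DCs (-1.16, SE 0.10, adjusted p = 1.03e-09, 2.24-fold). Its partner Rpl22 was lower by less (-0.36, SE 0.08, adjusted p = 0.00053), with arrays that overlapped, and turned to 0.05 under cre centring. The log2 ratio of Rpl22l1 to Rpl22 did not overlap between DCs of either mouse group (-1.89 to -1.14) and lymphocytes (-0.93 to -0.45).

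Rps4l, listed as a pseudogene that is transcribed, had its highest signals in DEC205 DCs (741.9, 796.2 and 615.5), then in 33D1 DCs (427, 352.1 and 188.6) and B cells (36.4, 190.7 and 216.9), and at most 25 on any T cell array. The lowest 33D1 array and the highest B cell arrays overlapped. The gene passed the filter through its DC arrays and 2 B cell arrays, and every T cell array lay below the added 48.6. It was called higher in DCs (adjusted p = 6.54e-10), but the size of its difference rests on the added value: it was 2.54 here, 3.97 with 1 added and 1.45 with 200 added, and no fold is given. Rpl7l1, a nucleolar paralog of Rpl7, was slightly higher in DCs: 2117.1, 2030.4 and 2196.9 in 33D1 DCs, 2265.5, 2389.9 and 2183.7 in DEC205 DCs, and at most 2023.1 in lymphocytes (0.45, SE 0.08, adjusted p = 7.83e-05, no overlap). The nearest arrays, at 2030.4 and 2023.1, almost met, and not all kept probe sets of Rpl7l1 were called higher. Rpl39l, best known from testis, read at most 312.6 and was lower in DCs (-0.52, SE 0.17, adjusted p = 0.0117). Its arrays overlapped, and the call was lost with median centring (adjusted p = 0.0857) and quantile normalization (adjusted p = 0.0778). All 3 of its 33D1 arrays (106.3 to 173.8) lay above the 3 B cell arrays (78 to 89.3), and the T cell arrays were the highest of the lymphocytes.

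**Figure D4:**
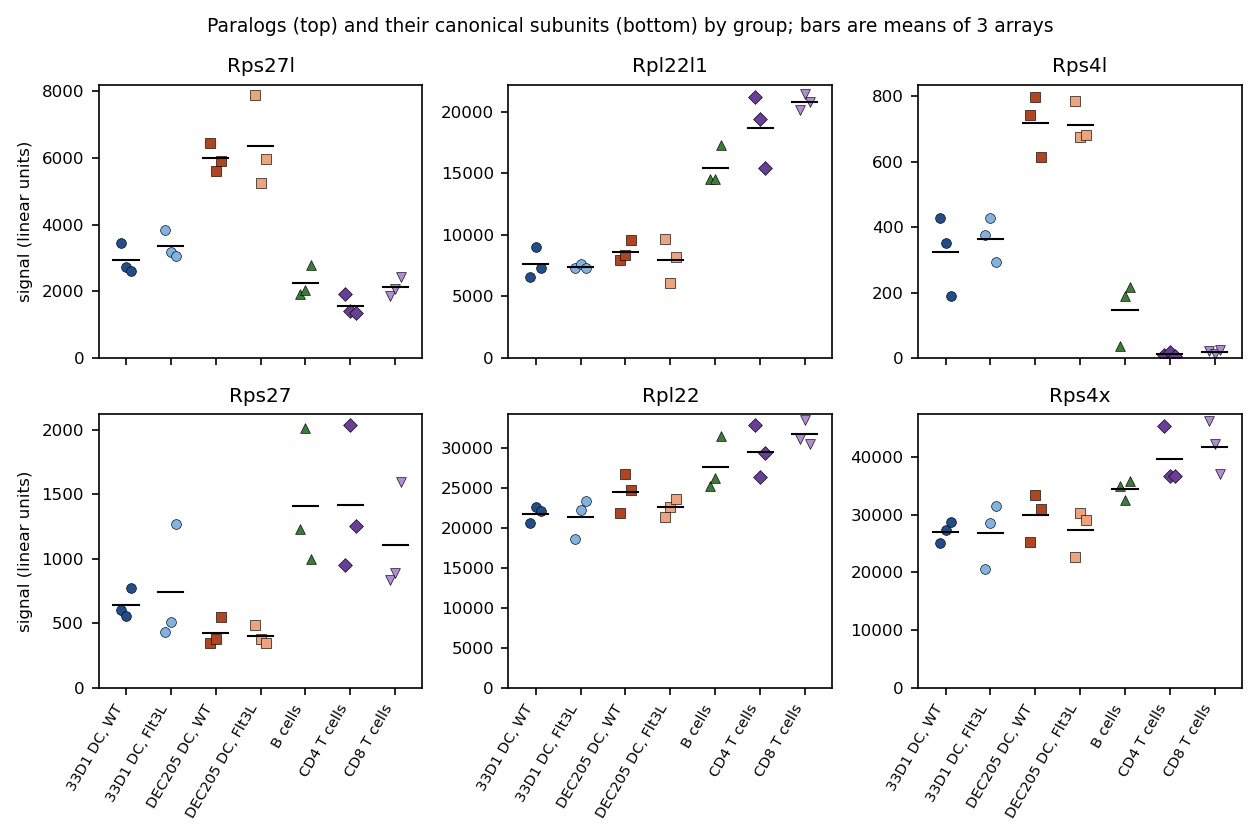
Signals per array (points) and group means (bars) of 3 paralogs in the upper panels, Rps27l, Rpl22l1 and Rps4l, and of the subunit each resembles below, Rps27, Rpl22 and Rps4x. Rps27l and Rps4l are highest in DEC205 DCs of both mouse groups, and Rpl22l1 is highest in T cells.

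The order of the 7 groups was, for Rps27l, DEC205 DCs of Flt3L mice (6368 ± 1354, SD, n = 3), DEC205 DCs of wild-type mice (5988 ± 432), 33D1 DCs of Flt3L mice (3358 ± 430) and of wild-type mice (2931 ± 465), B cells (2257 ± 476), CD8 T cells (2121 ± 286) and CD4 T cells (1566 ± 317). Arrays of neighbours in this order overlapped, except between the DEC205 and the 33D1 groups. By Pearson's r of log2 signals over the 7 group means, the genes closest to Rps27l were Snx1, Nufip1, Copa, Ctnnd1 and Ranbp1, and those closest to Rps4l were Tmem50b, Slc66a2, Cst3, Atf6b and Ywhae. For Rpl22l1 they were Wdr45, Nop10, Grwd1, Zzz3 and Eef1d. Over 7 points such a likeness is a description and many genes reach a high value.

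Between the DC subsets of wild-type mice, 3 members were called lower in 33D1 than in DEC205 DCs (Rps27l, Rpl14 and Rps4l) and Rpl39l higher, beside 11.8% of all genes lower and 11.3% higher. The median over members was -0.13 and 42 of 48 had a negative difference, against 0.04 for all genes. With quantile normalization and with cre centring 27 of 48 were negative, with medians of -0.01 in both, and centring on the members' own median left 18 negative. Rps27l differed by -1.03 (SE 0.17, adjusted p = 7.39e-05) and both of its other probe sets were called lower too, the lower at -1.11. Rpl14, on its dim probe set, read 485.4, 488.5 and 414.8 against 999.5, 872.6 and 867.6 (-0.91, SE 0.19, adjusted p = 0.00114). Rps4l differed by -1.10 (SE 0.32, adjusted p = 0.0151). The arrays of these 3 genes did not overlap between the subsets, and 19% of all genes were lower in that way. Rpl39l, which passed the filter through no DEC205 array, read 106.3, 173.8 and 159.8 against 79.1, 51 and 60.6, without overlap, as 19.3% of all genes were higher (0.79, SE 0.26, adjusted p = 0.0295). Its call was lost on leaving out 1 of 4 arrays (33D1 replicate 2 or 3, DEC205 replicate 2 or 3, with 0.69 to 0.77). The Rps4l call was lost with 1 added in place of 48.6 (adjusted p = 0.109), and without 33D1 replicate 3 (-0.80, adjusted p = 0.11) or DEC205 replicate 2 (-1.02, adjusted p = 0.0561). Without the 2 arrays that stood apart in the markers, Rps27l (-1.04), Rpl14 (-0.95) and Rps4l (-1.20) were still called, and Rpl39l was not (0.77, adjusted p = 0.0865). The median over members was then -0.10. Centred on cre, no member was called: Rps27l gave -0.90 with an adjusted p of 0.0524.

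In Flt3L mice, Rps27l and Rps4l were again lower in 33D1 DCs and no member was higher, beside 11.8% and 11.7% of all genes. Rps27l read 3849.6, 3167.4 and 3055.5 against 7876.2, 5258.5 and 5968.4 (-0.90, SE 0.17, adjusted p = 0.000329). Rps4l read 374.8, 427.5 and 292.3 against 784.1, 674.5 and 680.7 (-0.89, SE 0.32, adjusted p = 0.0494), a call that was lost on leaving out any of 16 of the 21 arrays. Without the 2 arrays named above, Rps27l gave -0.84 (adjusted p = 0.00415) and Rps4l -0.76 (adjusted p = 0.189). Rpl14, at 538.2, 543.9 and 495.2 against 876.9, 658.1 and 735.6, did not pass (-0.48, SE 0.19, adjusted p = 0.0826), although its arrays did not overlap, which 19.4% of all genes showed as lower and 21.4% as higher. The difference between the subset contrasts of both mouse groups was called for 0.105% of all genes and for none of the members by limma, with 0 also at an unadjusted p under 0.05. Its median over the members was 0.10, and -0.01 without the 2 arrays. This does not show that the contrasts are alike.

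Between Flt3L and wild-type mice no member was called in either subset by limma, where 1.01% of all genes were called in 33D1 DCs and 2.11% in DEC205 DCs. The median over members was -0.03 in 33D1 and -0.12 in DEC205 DCs, and the number at an unadjusted p under 0.05 was 0 and 1. Without replicate 1 of the Flt3L 33D1 arrays, the first of these medians turned to 0.13. Without the 2 arrays that stood apart in the markers the medians were -0.10 and -0.09, again with no member called. The 3 Rps27l arrays of DEC205 DCs from Flt3L mice (5258.5 to 7876.2) spanned those of wild-type mice (5603.6 to 6454.6).

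Within the lymphocytes, B cells differed from T cells by a median of -0.20 over the members (41 of 48 negative), against -0.06 for all genes. This median was -0.06 with median centring, where all genes were at 0.08, and -0.02 with quantile normalization, where 30 of 48 were negative. The test called 2 members higher and 1 lower, beside 13.1% and 13.9% of all genes. B cell replicate 3 had the highest summed plasma cell markers (39304.6 against 23076.9 and 23959.7 in the other B cell arrays) and the highest member median of the B cells (35798.6 against 33074.2 and 31312.1). Without it, 2 members were higher and 3 lower (Rpl39l, Rpl22l1 and Rpl8), and the part of these markers in the results was not tested. Rps4l was higher in B cells (adjusted p = 0.00028; 2.94 with 1 added and 0.65 with 200 added), at 148 ± 97.5 (SD, n = 3) against 15.5 ± 7.16 (n = 6). Rpl7l1 was higher too, at 1919 ± 90.9 against 1468 ± 216 (0.39, SE 0.11, adjusted p = 0.0102), a call lost without B cell replicate 2 (adjusted p = 0.0588). Rpl39l was lower, at 78, 89.3 and 82.2 against 113.7 to 312.6 on the T cell arrays (-1.015, SE 0.22, adjusted p = 0.00121). It had passed the filter through no B cell array. Rpl22l1 missed the threshold (-0.35, SE 0.13, adjusted p = 0.0562). Between CD8 and CD4 T cells no member was called by limma, and 1 had an unadjusted p under 0.05 (Rps27l, 0.44), while 3.26% of all genes were called.

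The 99 kept probe sets of the members were also fitted each on its own, among 23946. Against lymphocytes, 72 were lower and 8 higher, beside 28.8% and 21.6% of all those fitted. All 61 with a mean signal above 20000 were lower, between -0.85 and -0.33, and of 28 with a mean below 3000, 7 were lower and 4 higher. Rpl13a and Rps3 each had a probe set called the other way from the one kept: Rpl13a at 0.29 (SE 0.12, adjusted p = 0.0483) on a probe set of mean signal 6888, and Rps3 at 0.62 (SE 0.26, adjusted p = 0.0468) at 129.6.

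**Figure D5:**
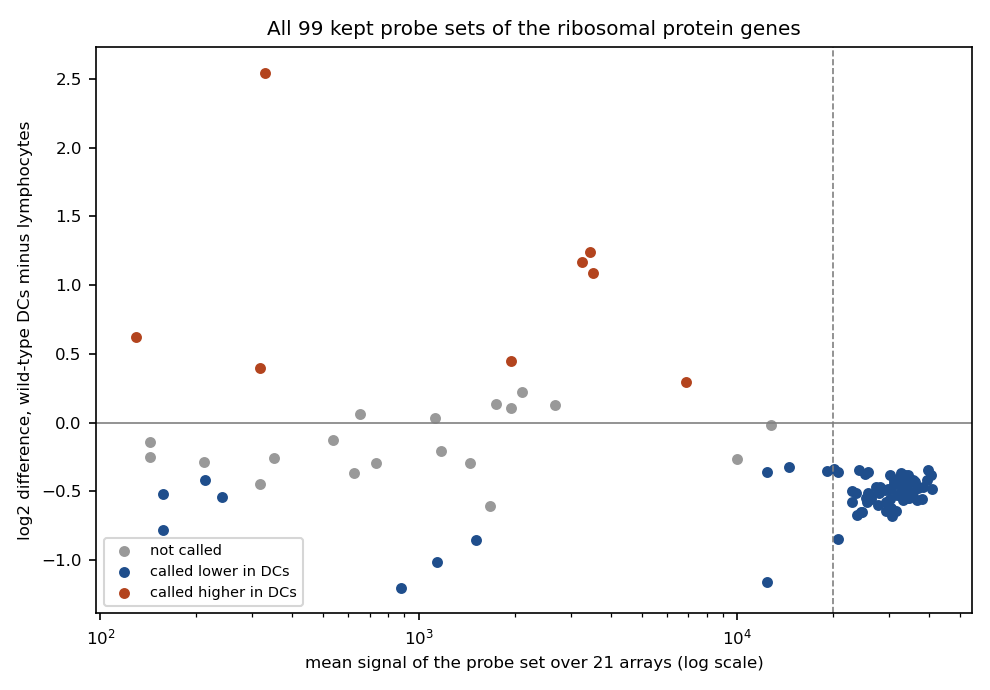
Difference of wild-type DCs from lymphocytes (y axis, log2) against mean signal (x axis, log scale) for the 99 kept probe sets of the members, coloured by call, with a dashed line at 20000. Right of the line all 61 probe sets lie between -0.85 and -0.33, and left of it the spread is wider, from -1.20 to 2.54.

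Genes that act with the ribosome were taken from lists that hold no member. Of the 49 measured genes of ribosome biogenesis, 37 were lower in wild-type DCs than in lymphocytes and 4 higher (median -0.41), beside 30.3% and 22.4% of all genes with a median of -0.12. Among the lower ones were Nle1 (-1.11), Wdr74 (-0.82), Imp3 (-0.75) and Gnl3 (-0.71), factors of subunit assembly and the nucleolus. The count fell to 1 lower and 4 higher (median -0.00) when centred on cre, beside 8.24% and 34.3% of all genes, and was 35 and 4 under quantile normalization. Of 15 elongation factors and other TOP mRNAs, 11 were lower and 1, Nap1l1, higher, with Eef1d at -0.68 and Eef2 at -0.37. Of 28 initiation factors 8 were lower and 6 higher, shares near those of all genes. Of 25 cell cycle genes 22 were higher and 1 lower (median 1.73), with Mki67 at 3.35 and Rrm2 at 2.90. That list stayed at 22 or 23 higher in the scalings listed above. Fau, a small subunit gene outside the symbol rule, was lower as deposited (-0.37, adjusted p = 0.0014) and at 0.04 under cre centring.

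Myc, which drives ribosome synthesis, read 678 ± 59 (SD, n = 6) in wild-type DCs and 2914 ± 1171 (n = 9) in lymphocytes (-1.93, SE 0.16), while Mycl was higher in DCs (5.14, SE 0.10) and Mycn did not pass (-0.37, adjusted p = 0.389). Eif4ebp1, an mTOR target that holds back initiation, differed by 1.15. Between the wild-type DC subsets, 13 of 49 biogenesis genes and 13 of 28 initiation factors were lower in 33D1 DCs and none higher, beside 11.8% and 11.3% of all genes. Polr1a, the largest subunit of RNA polymerase I, averaged 438 ± 47 against 1207 ± 78 (n = 3 each; -1.37, SE 0.14, adjusted p = 6.95e-08), and Eif2b2 and Eif1a differed by -1.36 and -1.49. In Flt3L mice 18 biogenesis genes were lower and 1 higher, beside 11.8% and 11.7% of all genes, with Polr1a at -1.69 and Fbl, the rRNA methylase fibrillarin, at -1.16. Mycl was lower in 33D1 DCs in both mouse groups (-1.88 and -2.42). These results between the subsets are given under the deposited scaling and with all arrays only. Centred on cre, 4.19% of all genes were called lower between the wild-type subsets and 6.99% higher.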

How the data were processed

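RNA of sorted spleen cells was labelled as biotin cRNA and hybridised to mouse Affymetrix arrays, 5 ug of RNA each. The deposited values are signal intensities, linear and 1 per probe set, which the authors made with MAS5 in GCOS (per the submitters' notes on processing; versions not given in the sources used here). Of 45101 probe sets, 34945 carried a single symbol and 932 several. A gene's probe set with the highest mean was kept where its intensity exceeded 156.3, the table's median, on at least 3 arrays. limma 3.58.1 (R 4.3.3) fitted log2(intensity + 48.6), the 25th percentile, over 21 arrays and 7 groups with a trend of variance on intensity (residual degrees of freedom 14), Benjamini-Hochberg over 13284 genes, in 8 contrasts. The fit was tested on simulated data.

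Members, pathway lists (ribosome subunits named outside the rule, elongation and TOP, initiation, biogenesis, growth control, cell cycle, ribosome quality control) and alternatives were chosen with earlier results of these data known. Named were, per contrast, up to 5 called members at each end without overlap, all paralogs, Rplp0, Rplp2, Rpsa, Rps6, Rpl22 and Rps27, the brightest and dimmest 3, those that failed the filter, those with probe sets called in opposite directions, and up to 4 genes per pathway list by adjusted p. Of 11 quality control genes 4 were lower and 3 higher in wild-type DCs than in lymphocytes, and of 21 growth control genes 8 and 5, beside 30.3% and 22.4% of all genes. The likeness of genes was Pearson's r over 7 group means. Sequences came from RefSeq (GRCm38.p6) by Entrez gene identifier, with 44 of 50 members listed.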

Additional observations from a re-analysis of the deposited data

How the results depend on the processing

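Leaving out each array in turn moved the members' median difference between -0.48 and -0.38 for wild-type DCs minus lymphocytes, -0.22 and -0.06 for the wild-type subsets, -0.13 and 0.10 for the Flt3L subsets, 0.01 and 0.24 for the difference between these, -0.10 and 0.13 for Flt3L minus wild-type in 33D1 DCs, -0.22 and -0.04 in DEC205 DCs, -0.26 and -0.15 for B minus T cells and 0.07 and 0.20 for CD8 minus CD4. The calls ranged over 3 to 4 higher and 38 to 40 lower (DCs minus lymphocytes), 0 to 1 and 2 to 4 (wild-type subsets), 0 and 1 to 3 (Flt3L subsets), 1 to 2 and 1 to 3 (B minus T), and 0 to 1 higher in DEC205 DCs for Flt3L.

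Counts of called members moved by over 1.5 times as follows, and the cause was not tested. For the wild-type subsets, 0 were higher with quantile normalization, median centring, an offset of 200, a filter at 527.6, only the groups compared, without the 2 mixed arrays, and on cre or all controls, where 0 were also lower; 2 were higher with no filter and with the lowest kept probe set. For the Flt3L subsets, 1 was lower with quantile normalization (2 higher), median centring, an offset of 1, no filter, no trend, without the 2 mixed arrays, on cre and on the members' median, and 0 on all controls. For DCs minus lymphocytes, lower calls were 14 with quantile normalization, 2 on cre (5 higher), 3 on all controls and 4 on the members' median (7 higher). For B minus T cells, lower calls were 2 with quantile normalization and with the lowest probe set, 0 on cre or all controls (1 higher) and 6 without the DC arrays numbered 1, and 1 was higher with median centring.

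The replicate numbers were not taken to pair the arrays, since the labels do not say so and not every same-number correlation was above 0.1. Over 63 pairs with the same number the deviations correlated at -0.38 to 0.36 (median -0.03, 13 over 0.1), and 12 of 21 arrays correlated best with their own number, a hint from the data and not the design. With a replicate block, 1 member was lower between the Flt3L subsets.

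Differences from lymphocytes that reversed were, with quantile normalization, Rplp0 0.0753, Rpl22 0.0147 and Rps29 0.0258, and on cre Rplp0 0.0497, Rpl22 0.0545 and Rps29 0.0293. On the members' median they were Rplp0 0.11, Rplp2 0.0043, Rpl22 0.12, Rps29 0.0928, Rps3a1 0.0119 and Rpl13a 0.0490. With the lowest kept probe set they were Rpl22 0.11, Rpl13a 0.29 and Rps3 0.62, and with the mean of the probe sets Rps3 0.0516. Of 429 values of named members under 16 alternatives, 342 kept direction and call, 71 lost the call and 16 reversed. The number of arrays limits the precision. Centring on cre, on all controls and on the members' median, and leaving out the DC arrays numbered 1, were chosen after seeing the data.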
